A study of Mus musculus with 26 samples.

Results

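*Lin28a*, *Lin28b*, *Igf2bp1*, *Igf2bp2*, *Igf2bp3*, *Hmga1* and *Hmga2* are examined here, 7 of the 52609 gene rows of the expression table. They were chosen by name, as RNA-binding and chromatin genes that are active in the embryo and mostly fall silent after birth, with earlier results of these data known. All 7 have a row of their own in the table. The study asked which loci depend on DNMT3A or DNMT3B, the enzymes that place new DNA methylation, and its RNA-seq data analysed here are 10 libraries of E14.5 mouse embryos or cells made from them, with 1 library per condition. The 2i-MEF libraries are fibroblasts at passage 1 that carry *Dnmt3a* KO or *Dnmt3b* KO. They come from chimeric embryos made with female ES cells of the strain F1 (129X1/SvJ and MSM/Ms), kept in 2i/L medium (MEK inhibitor, Gsk3 inhibitor and LIF) before injection, and were freed of host cells by antibiotic selection. The MEF libraries are male C57BL6 fibroblasts at passage 1 from embryos labelled *Dnmt3a* WT or *Dnmt3a* KO, each treated with GSK126, an inhibitor of the Polycomb enzyme EZH2, or with its solvent DMSO. Whether the DMSO and GSK126 cells came from the same culture is not given in the sources used here. The tissue libraries are heart and liver of 1 male C57BL6 embryo labelled WT (embryo 4) and 1 labelled *Dnmt3a* KO (embryo 25). A WT 2i-MEF control and the 16 samples of DNA methylation were not analysed here.

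*Dnmt3a* itself followed the label in 2i-MEFs, with 4.21 FPKM in *Dnmt3a* KO against 23.9 in *Dnmt3b* KO, and in liver, with 12.7 FPKM against 53.5 FPKM in WT. It went against the label in heart, with 125 FPKM in the KO against 55.0 FPKM in WT, and in MEFs, with 84.5 to 85.7 FPKM in the KO against 19.3 to 26.1 FPKM in WT. *Dnmt3b* was at 0.817 in *Dnmt3b* KO 2i-MEFs and at 1.81 FPKM in *Dnmt3a* KO 2i-MEFs. In embryo 25, *Dnmt3a* was thus below WT in liver and above WT in heart. FPKM over a whole gene does not show the altered sequence, so these values cannot decide the genotype of any library. The MEF and heart libraries, where the value went against the label, are called "labelled *Dnmt3a* KO", and the others keep their label untested. Estimated depth ranged from 9179815 reads in *Dnmt3b* KO 2i-MEFs to 26230194 reads in WT liver, so 1 FPKM (a read density that is corrected for transcript length and for library depth) on a transcript of 2000 bases stands for 16.5 to 47.2 reads. The 5 cardiomyocyte markers summed to 10696 to 10778 FPKM in heart and 3.65 to 22.5 FPKM in liver. The 5 hepatocyte markers summed to 10796 to 17823 FPKM in liver, 7.20 to 32.8 FPKM in heart and 0 FPKM in 2i-MEFs. The 5 erythroid markers reached 46147 to 59752 FPKM in liver and 11621 to 15378 FPKM in heart, most of it *Hba-a1*, while the erythroid regulator *Klf1* was at 469 to 480 FPKM in liver and 1.71 to 3.33 FPKM in heart. The 6 fibroblast markers summed to 19219 to 20503 FPKM in 2i-MEFs, 6039 to 11866 FPKM in MEFs and 246 to 1420 FPKM in the tissues. The pluripotency genes *Pou5f1* and *Zfp42* were at 0 in all cultured libraries, and all 5 markers of that list summed to at most 1.24 FPKM there. The 5 skeletal muscle markers summed to 48.1 FPKM in WT liver and 1.28 FPKM in the *Dnmt3a* KO liver, and the 4 neural markers to between 1.71 and 19.2 FPKM in all libraries. In such bulk samples, fewer cells of a type and less RNA per cell cannot be told apart.

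LIN28A and LIN28B are RNA-binding proteins that grip the loop of let-7 precursors and, with the uridylating enzymes TUT4 and TUT7 and the nuclease DIS3L2, keep mature let-7 from being made. Mature let-7 in turn represses mRNAs that carry its seed match, among them those of *Lin28a*, *Lin28b*, *Hmga2* and the *Igf2bp* genes, so that the programme and let-7 hold each other off. The fetal liver, where blood stem cells expand at this stage, is a known site of *Lin28b* activity.

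The mature let-7 sequences are shown because matches to their shared seed were searched in the 7 genes. RefSeq (GRCm38.p6) lists 11 mature let-7 and miR-98 sequences of the 5′ arm for the mouse, and 10 of them share the seed GAGGUAG at bases 2 to 8. The exception is let-7j, with GAGGUAU. A few are written here 5′ to 3′ with bases 2 to 8 in capitals.
let-7a-5p: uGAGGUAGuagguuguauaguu
let-7d-5p: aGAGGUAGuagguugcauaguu
let-7g-5p: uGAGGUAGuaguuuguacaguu
let-7i-5p: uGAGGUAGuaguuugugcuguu
miR-98-5p: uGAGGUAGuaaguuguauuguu
Apart from let-7j, members of the family differ from one another only outside bases 2 to 8.

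GGAG is the short motif that the zinc knuckles of LIN28 are known to recognise. It occurred between the mature arms in 8 of 11 let-7 and miR-98 hairpins whose arms are both listed, and in 44 of 631 other miRNA hairpins, or 6.97%. The let-7 loops are also longer, with a median of 32 bases against 16 in the other hairpins, and the shares were not matched for length. The hairpins were read on their own strand only. The loops of *Mirlet7a-1* (GRCm38, chr13:48538179-48538272, minus strand) and *Mirlet7c-2* (chr15:85706603-85706697, plus strand) show the presence and absence of the motif, which is in capitals.
Mirlet7a-1 loop: uuagggucacacccaccacugGGAGauaa
Mirlet7c-2 loop: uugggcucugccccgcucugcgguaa
Neither the precursors nor mature let-7 were measured: all 12 *Mirlet7* and *Mir98* rows are at 0 in the 10 libraries.

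CTACCTC, the letters that pair with the let-7 seed, was searched on the transcript strand of the longest annotated 3′ UTR of each protein-coding gene in GENCODE M21. At least 1 match was present in 1896 of 20830 genes (9.10%). All 7 genes had at least 1. *Lin28b*, *Hmga2* and *Igf2bp1* had 4 matches each, in 3′ UTRs of 4445, 3014 and 6337 bases, and *Lin28a* had 2 in 2775 bases. At least 4 matches were present in 0.0576% of all genes, but in 0.274%, 0.149% and 0.419% of genes whose 3′ UTR is within 1.2 times the length of that of *Lin28b*, *Hmga2* and *Igf2bp1*. At least 2 were present in 1.95% of genes of like length to *Lin28a*. *Hmga1*, *Igf2bp2* and *Igf2bp3* had 1 match each, and at least 1 was present in 8.13%, 12.4% and 13.6% of genes whose 3′ UTR is within 1.2 times the length of theirs. *Hmga2* had the densest matches, at 1.33 per kilobase, and *Igf2bp3* the sparsest, at 0.472. A match is a description of letters and not of a site in use. The first match of each gene is written here with the 20 bases before it and 1 base after it, the match in capitals. Of these first matches, 6 of 7 are followed by A, the base that completes the longest kind of let-7 match. Over all matches of a gene, A follows only 1 of 4 in *Lin28b* and 1 of 4 in *Hmga2*, but 3 of 4 in *Igf2bp1* and 2 of 2 in *Lin28a*.
Lin28a, chr4:134005189-134005216, minus strand: ggagtgcacagcctgttgaaCTACCTCa
Lin28b, chr10:45381022-45381049, minus strand: ccttcacccgggcgggaagtCTACCTCa
Igf2bp1, chr11:95961778-95961805, minus strand: gcagtgctgtgcgaagtaaaCTACCTCa
Igf2bp2, chr16:22059473-22059500, minus strand: gaaaaacacacaaataaaagCTACCTCa
Igf2bp3, chr6:49086787-49086814, minus strand: aaacgtgcatttttactcaaCTACCTCa
Hmga1, chr17:27563272-27563299, plus strand: tcttctcctctgttcacaaaCTACCTCt
Hmga2, chr10:120364224-120364251, minus strand: ggggcgccgacattcaatttCTACCTCa
The first match of *Lin28b* lies 36 bases and that of *Hmga2* 58 bases after the stop codon, while the nearest match of *Igf2bp1* lies 1715 bases after it.

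**Figure D1:**
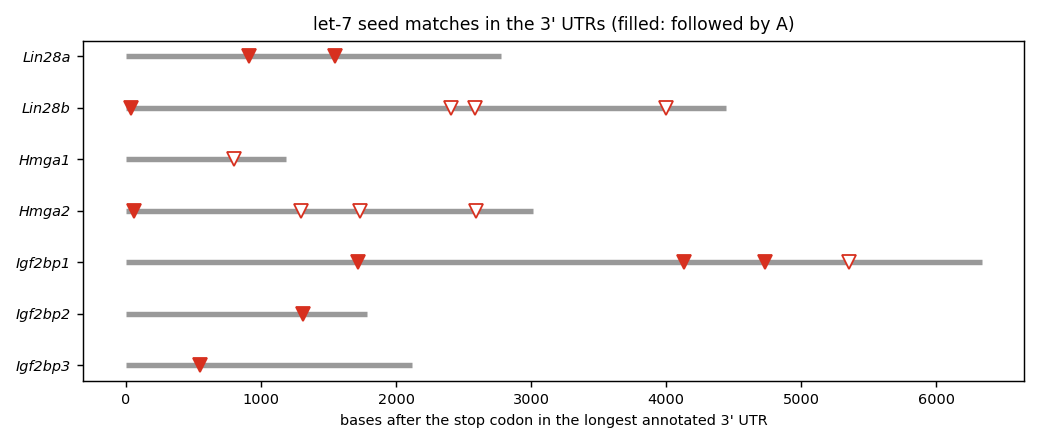
Positions of let-7 seed matches in the longest annotated 3′ UTR of the 7 genes. The x axis is the distance from the stop codon in bases, grey bars are the 3′ UTRs, and each triangle is 1 match, filled where A follows; *Lin28b*, *Hmga2* and *Igf2bp1* carry 4 matches each.

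Origins were compared by limma on log2(FPKM + 1) over the 15643 genes that reached 1 FPKM in at least 2 libraries. Libraries of the same origin differ in genotype or treatment, and heart and liver came from the same 2 embryos, so the p-values measure the spread between these libraries and not between independent embryos. Differences between origins were common across all genes. Of the genes tested, 27.8% were higher and 29.1% lower in heart than in liver, 11.8% higher and 11.8% lower in MEFs than in 2i-MEFs, and 34.8% higher and 35.2% lower in cultured fibroblasts (MEFs and 2i-MEFs weighted equally) than in the tissues. *Lin28a* and *Lin28b* passed the filter only through the liver libraries and so had to differ in contrasts with liver, and their tests are left out here. Against these shares, 3 of the 5 other genes differed between heart and liver, 2 between MEFs and 2i-MEFs, and all 5 between cultured fibroblasts and tissues. Centring the libraries on their median moved the median difference of all genes between cultured fibroblasts and tissues from 0.01 to -0.12 on the log2 scale, and all 5 genes kept their direction and their call under it.

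*Lin28b*, on the minus strand of chr10:45376620-45486395, was a liver transcript in these data. It was at 9.12 FPKM in WT liver and 8.16 FPKM in *Dnmt3a* KO liver. In heart it was at 0.285 FPKM (28 estimated reads) in WT, and 0.465 (37 reads) in the heart labelled *Dnmt3a* KO. In MEFs it was at 0.0617 and 0.0794 FPKM in WT cells with DMSO and GSK126, and at 0 and 0.00908 FPKM in the same order in cells labelled *Dnmt3a* KO, and it was at 0 in both 2i-MEF libraries. The liver libraries thus stood apart from all others, and heart lay above the cultured cells. The mean in liver was 23.1-fold that in heart. Liver was at least 130-fold above 2i-MEFs, taking the lower liver library against 3 reads in the shallower 2i-MEF library.

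*Lin28a*, on the minus strand of chr4:134003330-134018841, was also highest in liver, at a lower level. It was at 4.53 FPKM in WT liver and 3.20 FPKM in *Dnmt3a* KO liver. In heart it was at 0.0479 FPKM, or 3 estimated reads, in WT, and at 0.702 FPKM, or 36 reads, in the heart labelled *Dnmt3a* KO. All 6 cultured libraries were at 0, where 3 reads would have been 0.0354 to 0.0989 FPKM. The lower liver library was therefore at least 63.4-fold above the MEF libraries at that floor. WT heart, at 3 reads, lay at the floor and could not be told apart from the cultured cells. *Lin28b* was above *Lin28a* per length in both liver libraries, and neither gene was detectable in 2i-MEFs, whose ES cell ancestors belong to the cell type in which *Lin28a* is best known.

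The heart value of *Lin28a* differed between the 2 embryos more than that of any other of the 7 genes. The ratio of its FPKM, KO to WT, was 14.7, with a 95% counting interval of 4.66 to 74.8, and the log2 ratio of FPKM + 1 was 0.70. Hepatocyte markers were at 7.20 FPKM and erythroid markers at 11621 FPKM in the heart labelled *Dnmt3a* KO against 32.8 FPKM and 15378 FPKM in WT heart, and the part of such cells in the *Lin28a* values was not tested. *Lin28b*, by contrast, had a ratio of 1.63 in heart with an interval of 0.967 to 2.75.

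The *Igf2bp* genes encode RNA-binding proteins that stabilise and localise mRNAs, first known for binding the *Igf2* leader. They were measured in all 10 libraries, but each had its own order of origins. *Igf2bp1*, on chr11:95957163-96005940, was highest in liver, at 27.5 FPKM in WT and 25.6 FPKM in *Dnmt3a* KO. Heart held 15.2 FPKM in WT, and 11.7 in the heart labelled *Dnmt3a* KO, and 2i-MEFs held 10.4 FPKM in *Dnmt3a* KO and 18.6 in *Dnmt3b* KO. The 4 MEF libraries ranged from 7.55 to 10.6 FPKM with a median of 8.27 FPKM. Liver did not overlap any other origin, whereas the range of 2i-MEFs overlapped those of heart and of MEFs. Heart minus liver was -0.94 ± 0.26 (SE) on the log2(FPKM + 1) scale, which holds for all such differences (limma, adjusted p = 0.0141), a call that was lost without WT liver (adjusted p = 0.0671) or without the heart labelled *Dnmt3a* KO (adjusted p = 0.0941). Cultured fibroblasts minus tissues was -0.73 ± 0.17 (adjusted p = 0.00470), and MEFs minus 2i-MEFs was -0.63 ± 0.23 without passing the test (adjusted p = 0.0763). That value rests on the 2i-MEF libraries, being -1.03 without *Dnmt3a* KO 2i-MEFs (limma, adjusted p = 0.0169) and -0.24 without *Dnmt3b* KO 2i-MEFs (adjusted p = 0.517).

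*Igf2bp2*, on chr16:22059009-22163299, ran opposite to *Igf2bp1* between the tissues. It was at 23.7 FPKM in WT liver and 24.4 FPKM in *Dnmt3a* KO liver, below all 8 other libraries. Heart held 53.2 and 54.2 FPKM in WT and the library labelled *Dnmt3a* KO, the MEF libraries 50.7 to 63.8 FPKM with a median of 59.7 FPKM, and 2i-MEFs 45.5 FPKM in *Dnmt3a* KO and 68.4 in *Dnmt3b* KO. Heart, MEFs and 2i-MEFs overlapped. Heart minus liver was 1.13 ± 0.18 (limma, adjusted p = 0.000692), and the value stayed between 1.10 and 1.16 over 16 alternatives. Cultured fibroblasts minus tissues was 0.65 ± 0.12 (adjusted p = 0.00104). MEFs minus 2i-MEFs was 0.06 with a 95% interval of -0.29 to 0.42.

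*Igf2bp3*, on chr6:49085223-49214957, was highest in heart, at 35.5 FPKM in WT, and 32.7 in the heart labelled *Dnmt3a* KO. The liver held 20.2 FPKM in WT and 24.2 FPKM in *Dnmt3a* KO, the MEFs 19.1 to 23.7 FPKM with a median of 20.8 FPKM, and the 2i-MEFs 15.6 FPKM in *Dnmt3a* KO and 17.3 in *Dnmt3b* KO. Liver and MEFs overlapped, and 2i-MEFs lay below both. Heart minus liver was 0.60 ± 0.14 (limma, adjusted p = 0.00567), and cultured fibroblasts minus tissues was -0.54 ± 0.09 (adjusted p = 0.000705). MEFs minus 2i-MEFs was 0.34 ± 0.12 and missed the threshold (adjusted p = 0.0745). *Malsu1*, which overlaps *Igf2bp3* on the other strand, was at 29.3 to 52.5 FPKM over all libraries, and reads of both genes cannot be told apart unless they were counted by strand, which is not given in the sources used here.

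HMGA proteins are small architectural factors that bind AT-rich DNA. *Hmga2*, on the minus strand of chr10:120361275-120476469, is the let-7 target best known for several matches in 1 transcript. It was highest in MEFs, at 51.3 FPKM in WT with DMSO, 57.6 FPKM in WT with GSK126, 47.7 FPKM in cells labelled *Dnmt3a* KO with DMSO and 63.3 FPKM in the same cells with GSK126. The tissues lay close together, at 12.3 and 13.9 FPKM in heart and 14.3 and 12.2 FPKM in liver, WT first. The 2i-MEFs held 13.4 FPKM in *Dnmt3a* KO, within the range of the tissues, and 28.3 in *Dnmt3b* KO, between tissues and MEFs. MEFs minus 2i-MEFs was 1.44 ± 0.25 (limma, adjusted p = 0.00446). Its size rests on the 2i-MEF libraries, being 0.93 without *Dnmt3a* KO 2i-MEFs (limma, adjusted p = 0.0121) and 1.95 without *Dnmt3b* KO 2i-MEFs (adjusted p = 0.000960). Cultured fibroblasts minus tissues was 1.26 ± 0.19 (adjusted p = 0.000320). Heart minus liver was -0.01 with a 95% interval of -0.67 to 0.64. *1700006J14Rik*, which overlaps *Hmga2* on the other strand, was at 11.8 to 16.2 FPKM in MEFs, 6.0 FPKM in *Dnmt3a* KO and 9.32 in *Dnmt3b* KO 2i-MEFs, in the same order as *Hmga2*, and at 3.91 to 4.79 FPKM in heart and 8.64 to 12.8 FPKM in liver, with the same limit on strand as for *Igf2bp3*. *Hmga2* thus did not follow *Lin28a* and *Lin28b*, which were detected in liver and at or near 0 in the MEFs where *Hmga2* was highest.

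*Hmga1*, on the plus strand of chr17:27556620-27563674, was the most abundant of the 7 per length in both tissues and in MEFs, while in 2i-MEFs its level was close to that of *Igf2bp2*. It was at 387 FPKM in WT liver, 303 FPKM in *Dnmt3a* KO liver, and 174 and 178 FPKM in WT heart and the heart labelled *Dnmt3a* KO. MEFs held 139 FPKM in WT with DMSO, 155 FPKM in WT with GSK126, and 79.7 and 113 FPKM with DMSO and GSK126 in cells labelled *Dnmt3a* KO. The 2i-MEFs were lowest, at 36.3 FPKM in *Dnmt3a* KO and 76.0 in *Dnmt3b* KO, so the 4 origins followed one another without overlap. Cultured fibroblasts minus tissues was -1.63 ± 0.24 (limma, adjusted p = 0.000298). Heart minus liver was -0.96 ± 0.37 and missed the threshold (adjusted p = 0.0528), with adjusted p between 0.00234 and 0.211 over 16 alternatives. The lowest of these came from heart and liver alone with the embryo number as a replicate block, a fit that drops the cultured libraries and adds the block at once, so the gain cannot be put down to either. MEFs minus 2i-MEFs was 1.15 ± 0.32 (adjusted p = 0.0317), with adjusted p between 0.0145 and 0.212 over 15 alternatives, the highest without *Dnmt3a* KO 2i-MEFs, where the value was 0.63.

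**Figure D2:**
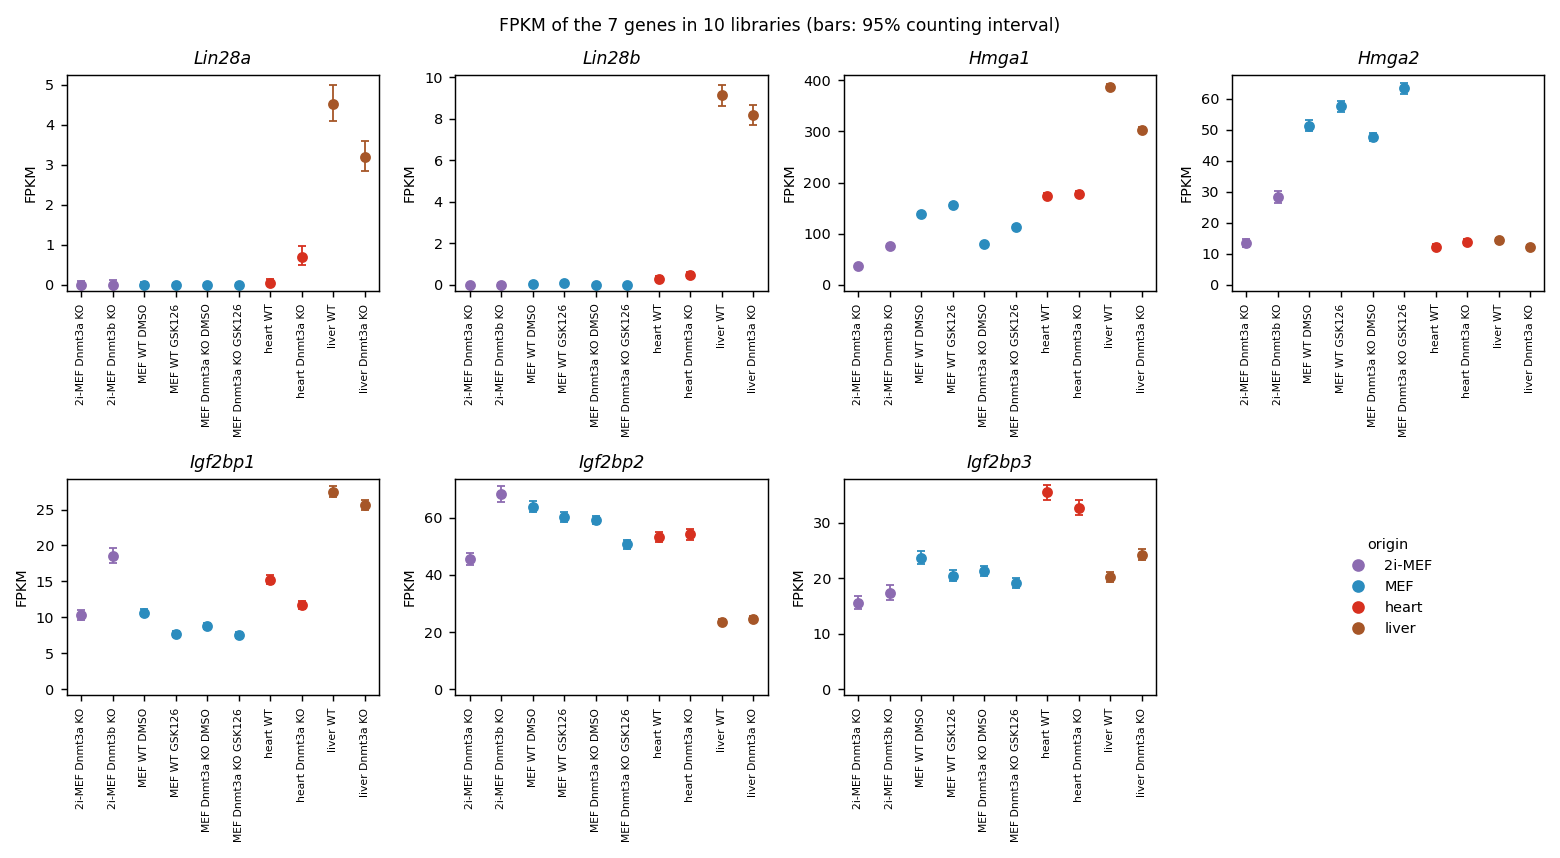
FPKM of the 7 genes in each of 10 libraries, as labelled, with 95% counting intervals of the reads estimated on the longest coding transcript. *Lin28a*, *Lin28b*, *Igf2bp1* and *Hmga1* are highest in both liver libraries, *Igf2bp3* in both heart libraries and *Hmga2* in the 4 MEF libraries, and *Igf2bp2* is lowest in liver.

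**Figure D3:**
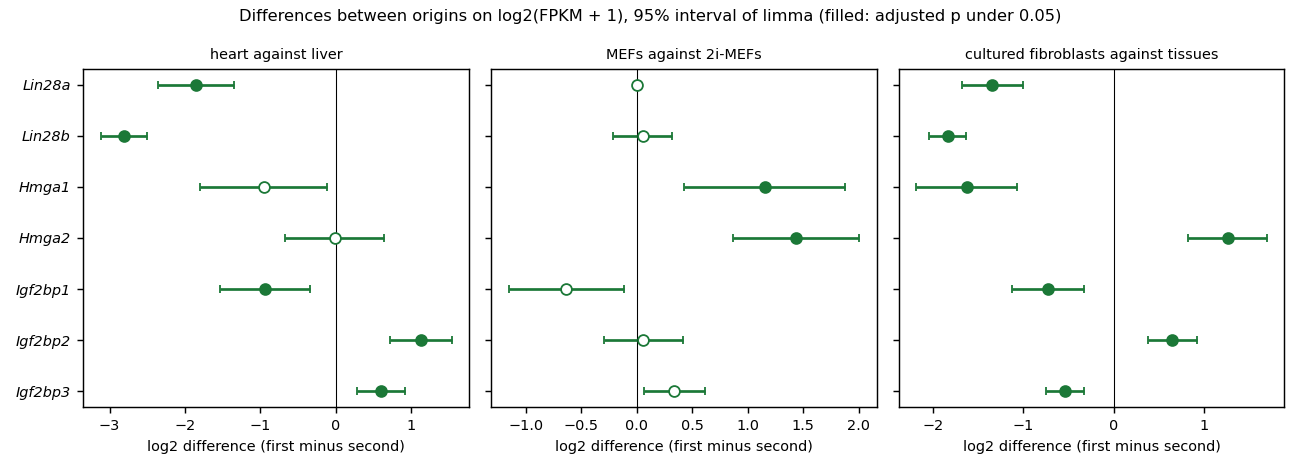
Differences between origins in log2(FPKM + 1) with 95% intervals from limma over 10 libraries; filled points have an adjusted p under 0.05. *Lin28a* and *Lin28b* passed the filter only through liver, so their points are a description. *Hmga2* and *Hmga1* are the filled points for MEFs against 2i-MEFs (1.44 and 1.15), and *Igf2bp1* and *Igf2bp2* lie on opposite sides of 0 in the left and right panels.

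The proliferation markers (*Mki67*, *Top2a*, *Ccnb1*, *Cdk1* and *Pcna*) summed to 1092 to 1212 FPKM in liver, 435 to 451 FPKM in heart and 108 to 192 FPKM in the cultured cells, the same order as *Hmga1* and *Lin28b* for liver, heart and culture. Within the cultured cells, *Hmga1* and *Hmga2* were lower in 2i-MEFs than in MEFs, while the marker sums of the 2i-MEFs, 111 and 157 FPKM, lay within the range of the MEFs. Of the 5 markers, only *Pcna* was called between them. It was higher in MEFs (0.44 ± 0.13, limma, adjusted p = 0.0446), where 11.8% of all genes were. The part of proliferating or blood-forming cells in the liver values was not tested. By limma 4 of the 6 fibroblast markers, *Postn*, *Col3a1*, *Pdgfrb* and *Col1a2*, were lower in MEFs than in 2i-MEFs. The neural marker *Tubb3* was higher in MEFs (0.70 ± 0.18, limma, adjusted p = 0.0256). Neural markers summed to 16.2 to 19.2 FPKM in MEFs and 9.23 to 12.4 FPKM in 2i-MEFs. The part of these markers in the differences of *Hmga1*, *Hmga2* and *Igf2* was not tested. The sex, strain, ES cell origin and culture history of 2i-MEFs and MEFs differ together, and their parts in the differences between these fibroblasts cannot be told apart.

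As a description of likeness, the genes with the nearest pattern over the 10 libraries were found by Pearson's r of log2(FPKM + 1) among 11512 protein-coding genes that reached 5 FPKM in a library. The 10 points fall into 4 origins, and r mostly describes the order of those. For *Lin28b* they were *Treml2*, *Agmat* and *Tac2* (r = 0.999, 0.999 and 0.998), each at under 1 FPKM outside liver. For *Igf2bp1* they were *Gtf2f2*, *Blm*, the Bloom syndrome helicase, and *Ranbp1* (r = 0.975, 0.971 and 0.971). For *Igf2bp2* they were *Pcdhgb4*, *Ankrd50* and *Pcdhga2* (r = 0.987, 0.985 and 0.985), of which the gamma protocadherins share exons and so reads with their neighbours. For *Igf2bp3* they were *Rmnd1*, *Cd93*, a receptor of endothelial cells, and *Rec8* (r = 0.980, 0.973 and 0.970). For *Hmga1* they were *Glod4*, *Sympk* and *Prex1* (r = 0.976, 0.971 and 0.970), and for *Hmga2* *Fosl1*, an AP-1 subunit, *Baiap2* and *Fgf10* (r = 0.982, 0.975 and 0.967). Among the genes themselves r was 0.82 for *Lin28b* with *Igf2bp1*, -0.95 for *Lin28b* with *Igf2bp2* and -0.71 for *Igf2bp1* with *Igf2bp2*.

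Comparisons of genotype and treatment each rest on 2 libraries and have no replicate check, so ratios are given with counting intervals only and a gene is called changed from 2-fold in FPKM + 1. In 2i-MEFs, *Hmga1* and *Hmga2* were lower in *Dnmt3a* KO than in *Dnmt3b* KO past that limit. *Hmga1* was 2.10-fold lower (95% counting interval 1.91 to 2.30, log2 ratio -1.05), close to the limit and uncertain as a call, and *Hmga2* was 2.10-fold lower (1.89 to 2.34, log2 ratio -1.02). Among 13605 genes with at least 1 FPKM in either library, 3.49% were lower and 5.52% higher by this rule. *Igf2bp1* followed with 1.80-fold lower FPKM (log2 ratio -0.79), then *Igf2bp2* (log2 ratio -0.58), while the ratio of *Igf2bp3*, 0.899, had an interval that reaches equal levels. The 5 detected genes therefore all lay on 1 side, with a median log2 ratio of -0.58 over the 7 genes against 0.03 over all genes tested. The proliferation marker sum moved the other way, 157 FPKM in *Dnmt3a* KO against 111 in *Dnmt3b* KO. Skeletal muscle markers moved with these genes, at 5.40 against 17.5 FPKM, nearly all of it *Acta1* (log2 ratio -1.51, past 2-fold), and neural markers were at 9.23 against 12.4 FPKM. The part of these cells was not tested. Without a WT 2i-MEF control it cannot be told which of the KO libraries stands apart.

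In MEFs labelled *Dnmt3a* KO against WT, none of the 7 genes passed 2-fold with either DMSO or GSK126. With DMSO, 4.24% of 13695 genes were higher and 2.02% lower, and with GSK126 2.88% of 13581 were higher and 2.95% lower. *Hmga1* came nearest, 1.75-fold lower with DMSO (interval 1.67 to 1.83, log2 ratio -0.80) and 1.37-fold lower with GSK126 (log2 ratio -0.45). *Hmga2* had log2 ratios of -0.10 with DMSO and 0.13 with GSK126, and the *Igf2bp* genes lay between -0.24 and -0.03 in both. The fibroblast markers summed to less in the cells labelled KO, to 9294 FPKM where WT held 11866 under DMSO, and to 6039 FPKM where WT held 8875 under GSK126. Against the sum, *Pdgfrb* was higher there with DMSO (77.5 against 53.7 FPKM) and GSK126 (77.0 against 61.8 FPKM), and *Postn* with DMSO only (436 against 322 FPKM). The other fibroblast markers were lower in the cells labelled KO. Skeletal muscle markers summed to more there, to 40.6 FPKM where WT held 15.7 under DMSO and to 22.3 FPKM where WT held 15.3 under GSK126, nearly all of it *Acta1*. Cardiomyocyte markers summed to 6.56 FPKM where WT held 1.52 under DMSO, nearly all of it *Tnnt2* (log2 ratio 1.57, past 2-fold). Under GSK126 they summed to 6.59 FPKM where WT held 7.91. The part of all these markers in the ratios was not tested. These comparisons share no library with each other but share the libraries of the treatment comparisons. *AI413582*, on the other strand of *Hmga1*, was at 28.3 to 37.0 FPKM in the cultured cells.

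GSK126 against DMSO moved none of the 7 genes past 2-fold. In WT MEFs 2.17% of 13490 genes were higher and 1.59% lower, and in MEFs labelled *Dnmt3a* KO 2.01% of 13654 were higher and 3.25% lower. The ratio of *Hmga1* was 1.12 in WT and 1.42 in cells labelled *Dnmt3a* KO, and that of *Hmga2* 1.12 and 1.33. *Igf2bp1* had log2 ratios of -0.42 and -0.20, *Igf2bp2* of -0.08 and -0.22, and *Igf2bp3* of -0.20 and -0.14, in the same order. The proliferation marker sum was lower with GSK126 in both genotypes, 117 against 192 FPKM in WT and 108 against 165 FPKM in cells labelled *Dnmt3a* KO. The fibroblast marker sum was lower as well, 8875 against 11866 FPKM and 6039 against 9294 FPKM, although *Thy1* was higher in both genotypes and *Pdgfrb* in WT. Cardiomyocyte markers summed to 7.91 against 1.52 FPKM in WT and 6.59 against 6.56 FPKM in cells labelled *Dnmt3a* KO, most of it *Tnnt2*. The part of these markers in the ratios was not tested. *Lin28a* and *Lin28b* stayed at or below 8 reads in every MEF library.

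In heart, 2.18% of 13828 genes were higher and 1.85% lower by 2-fold in the library labelled *Dnmt3a* KO, and in liver 1.39% of 13279 were higher and 2.30% lower in *Dnmt3a* KO. None of the 7 genes was called in either tissue. Apart from *Lin28a*, the log2 ratios in heart lay between -0.36 for *Igf2bp1* and 0.19 for *Lin28b*. In liver, *Lin28a* was 1.42-fold lower (95% counting interval 1.21 to 1.66) and *Hmga1* 1.28-fold lower (interval 1.25 to 1.31), and *Igf2bp3* was higher by a log2 ratio of 0.25 (fold interval 1.13 to 1.27). The hepatocyte marker sum was lower in the *Dnmt3a* KO liver (10796 against 17823 FPKM), although *Ttr* was at 745 against 715 FPKM. The erythroid marker sum was higher (59752 against 46147 FPKM), most of it *Hba-a1*, although *Gata1* (158 against 162 FPKM) and *Klf1* (469 against 480 FPKM) were not. The other markers of both lists moved with their sums in the *Dnmt3a* KO liver. Fibroblast markers (246 against 487 FPKM), skeletal muscle markers (1.28 against 48.1 FPKM) and cardiomyocyte markers (3.65 against 22.5 FPKM) were lower there as well, and the part of these cells in the ratios was not tested. The median log2 ratio of all genes tested in liver was -0.08, and that of the 7 genes -0.14.

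**Figure D4:**
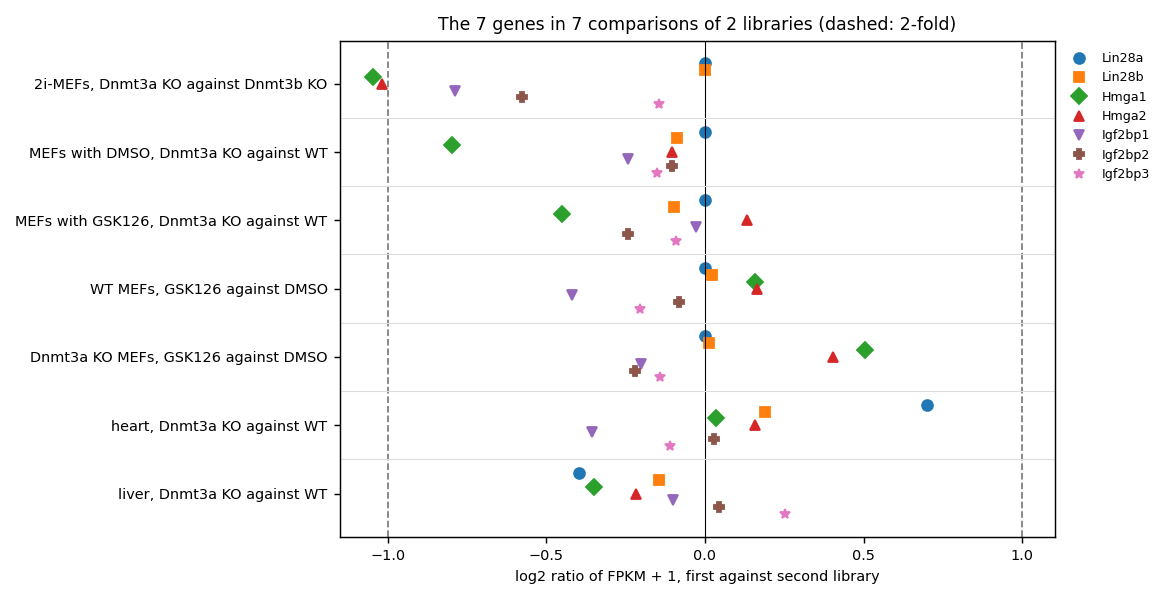
Log2 ratios of FPKM + 1 of the 7 genes in 7 comparisons of 2 libraries each; dashed lines mark 2-fold. *Hmga1* (-1.05) and *Hmga2* (-1.02) in 2i-MEFs are the only points past the lines, and *Lin28a* in heart (0.70) lies farthest to the right.

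The machinery that makes or removes let-7 was present in all 10 libraries. Of 10 genes listed for it, 5 were lower in heart than in liver by limma and none was higher, where 29.1% and 27.8% of all genes were, with a median difference of -0.34 against -0.01 for all genes. *Zcchc6*, which encodes TUT7, was at 53.0 and 47.6 FPKM in liver and 15.8 and 13.2 FPKM in heart, WT first (heart minus liver -1.73 ± 0.12, limma, adjusted p = 5.24e-06). *Trim25*, the cofactor of LIN28A-directed uridylation, followed with -1.40 ± 0.22, then *Xpo5*, which exports precursors from the nucleus, with -0.72 ± 0.13. *Zcchc11*, which encodes TUT4, did not pass the test in any of the 3 contrasts and reached at most 20.8 FPKM. Between cultured fibroblasts and tissues, 5 of 10 were lower in culture, where 35.2% of all genes were, among them *Tarbp2*, a partner of Dicer, with -1.45 ± 0.16, and *Dis3l2* with -1.12 ± 0.10. Between MEFs and 2i-MEFs limma called 0 of the 10, where 11.8% of all genes were called in each direction, with 3 at an unadjusted p under 0.05. None of the 10 passed 2-fold in any of the 7 comparisons of 2 libraries, where 1.39% to 5.52% of all genes did in a given direction.

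Of 20 known let-7 targets listed besides the 7 genes, 19 passed the filter, of which *Trim71* did so only through liver and *Hic2* only through the tissues. Such genes had to differ, so *Trim71* is left out of contrasts with liver and *Hic2* of that between culture and tissues. By limma 8 of the 18 others were lower and 4 higher in heart than in liver, where 29.1% and 27.8% of all genes were. The median over the 18 was -0.70 against -0.01 for all genes. *Myc* was at 72.6 and 64.5 FPKM in liver and 11.5 and 14.2 FPKM in heart, WT first (-2.33 ± 0.26, adjusted p = 7.41e-05). *Arid3a*, a regulator of fetal blood cells, had a difference of -1.82 ± 0.33, and *Plagl2*, an activator of *Igf2*, one of -1.53 ± 0.15. *Mycn* ran the other way, at 16.3 and 14.7 FPKM in heart against 3.92 and 2.63 FPKM in liver (1.96 ± 0.38, limma, adjusted p = 0.00198). Targets thus stood on both sides. Between cultured fibroblasts and tissues 9 of the 17 left were lower and 2 higher in culture, where 35.2% and 34.8% of all genes were, and their median was -0.42 against 0.01. *Mycn*, *Plagl2*, *Arid3b* and *Cdc25a*, a cell cycle phosphatase, had the widest differences, from -2.26 to -1.68, and *Ccnd2*, the cyclin D2 gene, was higher in culture by 1.67 ± 0.21. MEFs exceeded 2i-MEFs in 3 targets, *Ccnd2*, *Cdc34* and *Irs2*, of 19, and no target was lower, where 11.8% of all genes were called in each direction. In the comparisons of 2 libraries, *Arid3a* was 1.44 FPKM in *Dnmt3a* KO against 4.22 in *Dnmt3b* KO 2i-MEFs and *Arid3b* 1.97 against 0.391 FPKM, and *Mycn* was 2.54 against 0.667 FPKM in MEFs labelled *Dnmt3a* KO and WT with GSK126. No other target passed 2-fold, where 1.39% to 5.52% of all genes did in a given direction.

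*Igf2*, the fetal growth factor whose mRNA the IGF2BP proteins are named for, was at 4320 to 5158 FPKM in MEFs, 3379 and 3158 FPKM in heart and 1548 and 1226 FPKM in liver, WT first. In 2i-MEFs it was at 2.30 FPKM in *Dnmt3a* KO and 1.04 in *Dnmt3b* KO, a difference of MEFs minus 2i-MEFs of 10.85 ± 0.18 (limma, adjusted p = 9.71e-09). *Igf2bp2* and *Igf2bp3* in the same 2i-MEF libraries were within 1.5-fold of the MEF mean, and *Igf2bp1* had a 2i-MEF mean 1.67-fold that of MEFs. *Igf2r*, the receptor that clears IGF2, was at 14.2 and 7.45 FPKM in *Dnmt3a* KO and *Dnmt3b* KO 2i-MEFs and at 85.6 to 108 FPKM in MEFs (3.04 ± 0.22). *H19*, transcribed beside *Igf2*, was at 3541 to 6654 FPKM in all libraries. Of the 7 genes listed for this axis, 5 were higher and 1 lower in heart than in liver, the lower one being *Plagl2*, against 27.8% and 29.1% of all genes. MEFs exceeded 2i-MEFs in *Igf2* and *Igf2r* and were lower in none, against 11.8% of all genes in each direction. Cultured fibroblasts, as the mean of both kinds, were higher than tissues in 1, *Igf1r*, and lower in 4, against 34.8% and 35.2% of all genes. For *Igf2* this holds for 2i-MEFs only, since MEFs lay above every tissue library, and for *Igf2r* MEFs lay above liver. None of the 7 passed 2-fold in a comparison of 2 libraries, where 1.39% to 5.52% of all genes did in a given direction.

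Of 6 RNAs known to be bound by IGF2BP proteins (*Igf2*, *H19*, *Actb*, *Myc*, *Cd44* and *Btrc*), 2 were higher and 4 lower in heart than in liver, against 27.8% and 29.1% of all genes. *Myc*, *Btrc*, *Actb* and *Cd44* were lower in heart, and *Igf2* and *H19* were higher. Since *Igf2bp1* was lower and *Igf2bp2* and *Igf2bp3* were higher in heart, an RNA called in either direction had to match one of them. Against 2i-MEFs, MEFs were higher in *Igf2* and *Cd44* and lower in none, where 11.8% of all genes were called in each direction. Cultured fibroblasts were higher than tissues in *Actb* and *Cd44* and lower in *Btrc* and, through 2i-MEFs alone, in *Igf2*, where 34.8% and 35.2% of all genes were. Since some of these genes also stand in the let-7 target and IGF2 lists, the lists are not independent of each other. Of 17 let-7 precursor and host rows listed, 15 were found and only the hosts *Mir99ahg*, *Huwe1* and *Wdr82* reached 1 FPKM. *Mir99ahg*, the host of *Mirlet7c-1*, was at 0.565 and 1.74 FPKM in liver and 3.94 and 3.08 FPKM in heart, WT first (1.12 ± 0.36, limma, adjusted p = 0.0255), and at 2.08 FPKM in *Dnmt3a* KO against 5.40 in *Dnmt3b* KO 2i-MEFs. *Wdr82* was lower in MEFs than in 2i-MEFs (-0.69 ± 0.12, limma, adjusted p = 0.00461).

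**Figure D5:**
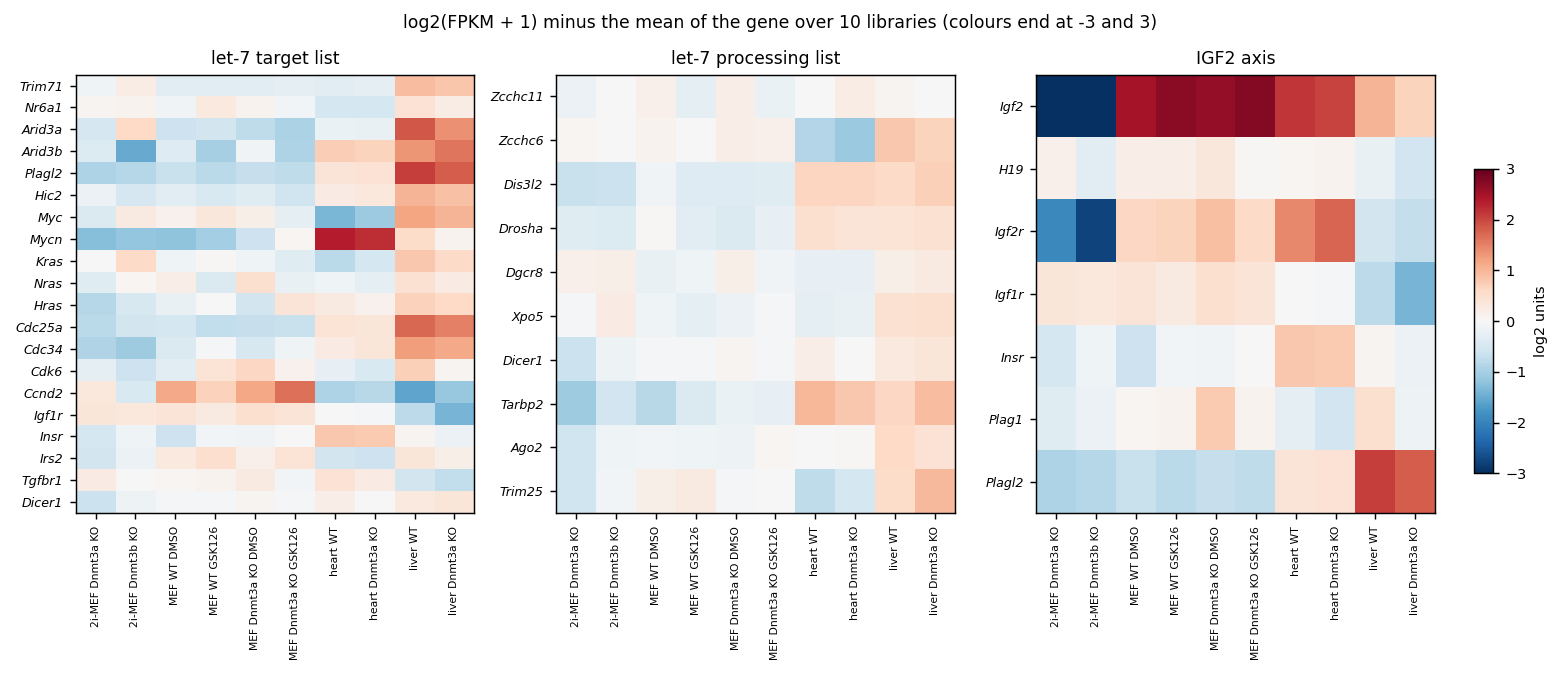
Levels of the let-7 target, let-7 processing and IGF2 genes in 10 libraries as log2(FPKM + 1) minus the mean of each gene over the libraries; red is above and blue below the mean of the gene. *Myc*, *Plagl2* and *Arid3a* are highest in both liver libraries, *Mycn* in both heart libraries, and *Igf2* and *Igf2r* are lowest in both 2i-MEF libraries.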

How the data were processed

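Expression was analysed in 10 RNA-seq libraries, prepared as stranded libraries and read as single reads. Per the submitters' processing notes and the study's methods, the authors removed adapters (cutadapt), aligned reads to mm10 with TopHat2 and the GENCODE annotation, kept unique hits and computed FPKM with Cufflinks 2.2.1. The deposited table holds FPKM and no read counts. Rows of the same symbol were summed (155 rows repeat one of 52454 symbols). Depth was estimated from low FPKM values of genes with 1 transcript, of which 96.2% to 97.9% under 10 reads fell within 0.1 of a whole read, where evenly spread values would give 20%. Counting intervals (95%, exact) and floors of 3 reads use the longest coding transcript of GENCODE M21 and cover counting error only. A value of 1 was added to FPKM before log2. Origins were compared with limma 3.58.1 (R 4.3.3, trend, Benjamini-Hochberg, threshold 0.05) and pairs of libraries by a 2-fold limit. Members and lists were chosen with earlier results of these data known, and p-values are adjusted over all genes tested. Named pathway genes are up to 4 with the widest differences per list and comparison; other list genes were named after their values were seen. Scripts were tested on simulated data. Coordinates are mm10, counted from 1. The replicate block pairs heart and liver of 1 embryo by its number in the labels, although *Dnmt3a* FPKM was below WT in liver and above WT in heart of embryo 25. Protein sequences were not used here. A further check of *Hmga1* is not reported here, and its calls close to a threshold (2-fold in 2i-MEFs, MEFs against 2i-MEFs, heart against liver) are uncertain.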

Additional observations from a re-analysis of the deposited data

How the results depend on the processing

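Alternatives were a pseudocount of 0.1, centring on the median, a 1.5-fold limit, other filters on low values, the highest row of a repeated symbol, fits without the GSK126 libraries or without each library in turn, and heart and liver alone with the embryo as replicate block. Counts for heart against liver include *Lin28a* and *Lin28b*, whose calls there say nothing of stability; without them it was 3, and 2 to 4 with 1 library left out. For 2 libraries, the count of called genes in MEFs with DMSO (*Hmga1*) was 1 at 1.5-fold, and in heart (*Lin28a*) it was 1 at 1.5-fold and 1 with a pseudocount of 0.1. In 2i-MEFs it was 3 at 1.5-fold, with *Igf2bp1* added. For heart against liver, leaving out 1 library gave between 2 and 6 called genes; 2 without WT liver and 3 without the *Dnmt3a* KO liver, where *Lin28a* and *Lin28b* no longer passed the filter. Heart and liver alone with the replicate block gave 6, by adding *Hmga1* (adjusted p = 0.00234), and changed no other call. The fit without cultured libraries and without the block was not run. For MEFs against 2i-MEFs, leaving out 1 library gave between 1 and 2, with 1 (*Hmga2*) without WT MEFs with DMSO or GSK126, MEFs labelled *Dnmt3a* KO with GSK126, or WT heart. Without *Dnmt3a* KO 2i-MEFs the 2 were *Hmga2* and *Igf2bp1* (-1.03, adjusted p = 0.0169), with *Hmga1* at 0.63 (adjusted p = 0.212). There was also 1 call, *Hmga2*, without the filter and 1 without the GSK126 libraries. Over all genes, calls between MEFs and 2i-MEFs numbered 3692, against 1643 without *Dnmt3b* KO 2i-MEFs and 2053 without the GSK126 libraries. For cultured fibroblasts against tissues, no alternative lost a call of the 5 genes other than *Lin28a* and *Lin28b*. *Hmga2* in heart against liver changed sign at 0.00057 when centred, 0.066 without WT heart and 0.094 without WT liver (-0.12 to 0.094 over libraries left out). *Igf2bp2* in MEFs against 2i-MEFs did so at -0.23 without *Dnmt3a* KO 2i-MEFs (-0.23 to 0.35). None of these passed the test. Depth limits *Lin28a* and *Lin28b*, which rest on at most 37 reads outside liver.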
